A study of Mus musculus with 23 samples.

Results

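A set of 9 genes that act on Notch proteins, on their sugars, cleavage and breakdown, was followed through spontaneous mouse T-cell acute lymphoblastic leukemia (T-ALL) and normal thymus. The genes were Lfng, Mfng, Rfng, Pofut1, Adam10, Adam17, Psen2, Ncstn and Fbxw7. They were taken by symbol from a table of 24475 genes, and all 9 were listed and passed the filter on low values. The 23 RNA-seq libraries comprised 6 of normal C57BL/6 thymus (Thymus), which the labels do not say were separate animals, and others from 14 spleens of BALB/c Rag2-/-Il2rg-/- mice bearing T-ALL that arose from a wild-type thymus graft (WT T-ALL), and from 3 such spleens in which the graft lacked Notch3 (Notch3 KO T-ALL). Grafts were thymus lobes of newborn mice, placed under the kidney capsule of the recipient. The wild-type donors were B6.Ly5.1, the background of the Notch3 KO donors was not given in the sources used here, and every leukemia was thus a separate case in a host without T, B and NK cells of its own. The Notch3 KO allele carries a β-galactosidase insertion in the first coding exon. The age of the control mice was not given in the sources used here.

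Notch receptors are built in the secretory pathway, where Pofut1 adds O-fucose to their EGF-like repeats and the fringe enzymes, lunatic (Lfng), manic (Mfng) and radical fringe (Rfng), extend that fucose and so tune the response to Delta and Jagged ligands. After ligand binding, the metalloprotease ADAM10 sheds the ectodomain, while ADAM17 is tied mainly to shedding without ligand. Then γ-secretase, whose catalytic subunit is a presenilin and whose substrate-binding subunit is nicastrin (Ncstn), frees the intracellular domain. The F-box protein Fbxw7 recognises that domain through its PEST region and directs it to the proteasome. In the thymus Notch1 drives T-lineage commitment, and mutations of NOTCH1 or FBXW7 that prolong the signal are a hallmark of human T-ALL.

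Lfng, Adam17 and Fbxw7 were lower in WT T-ALL than in thymus, and the sequences upstream of their start sites are shown for that reason. Each is the 250 bases before a start site annotated by RefSeq (GRCm38.p6), read 5′ to 3′ on the gene's strand: chr5:140607091-140607340, plus strand, for Lfng, chr12:21373633-21373882, minus strand, for Adam17, and chr3:84815327-84815576, plus strand, for the first of the 3 Fbxw7 starts that have a window. The annotated gene begins upstream of that start. Capitals mark matches on either strand to TGGGAA, the core bound by the Notch effector RBPJ, and to the E-boxes CAGCTG and CACGTG.
Lfng: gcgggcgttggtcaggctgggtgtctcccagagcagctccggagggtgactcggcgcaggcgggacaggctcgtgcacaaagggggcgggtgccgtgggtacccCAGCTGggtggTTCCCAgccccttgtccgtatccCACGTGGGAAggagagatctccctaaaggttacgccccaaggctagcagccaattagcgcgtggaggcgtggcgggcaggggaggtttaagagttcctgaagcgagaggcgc
Adam17: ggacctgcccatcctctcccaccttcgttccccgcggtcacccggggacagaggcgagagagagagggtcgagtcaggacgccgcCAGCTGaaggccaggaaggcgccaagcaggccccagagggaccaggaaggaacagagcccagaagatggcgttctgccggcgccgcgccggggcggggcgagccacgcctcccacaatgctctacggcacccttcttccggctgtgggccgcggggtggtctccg
Fbxw7: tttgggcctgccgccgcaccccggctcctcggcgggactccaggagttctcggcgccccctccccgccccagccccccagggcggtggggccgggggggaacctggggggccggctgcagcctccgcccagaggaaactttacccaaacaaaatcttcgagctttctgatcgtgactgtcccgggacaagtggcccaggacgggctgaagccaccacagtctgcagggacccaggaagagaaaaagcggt
The Lfng window held 2 TGGGAA cores, 1 CAGCTG and 1 CACGTG, the last of which runs into one of the cores. The Adam17 window held 1 CAGCTG, and none of the 3 Fbxw7 windows held any of these letters. Of 32851 RefSeq windows of the same design, 21.6% held TGGGAA, 13.0% held CAGCTG and 6.02% held CACGTG. Of the other genes with a window, Adam10 had 1 CACGTG, one of 2 Psen2 starts had 1 TGGGAA and 1 CACGTG, and Ncstn, Pofut1 and Rfng had no match. A match is a string of letters and was not tested for binding.

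The values are log2(RPKM + 1), where RPKM (reads normalized to transcript length and library size) had been scaled so that the 75th percentile of genes was 10 in each library. No counts were given, and the depth behind a value is unknown. Between 10154 and 11011 genes reached a scaled RPKM of 1 in a library. T-cell markers were high in every library, with a summed scaled RPKM of 2837 to 3487 in thymus, 1562 to 3364 in the wild-type leukemias and 1847 to 2479 in the Notch3 KO leukemias. The spleens also held host cells. The 7 listed erythroid markers of 8 summed to 0.207 to 2.42 in thymus, where 6 were under 1 in all libraries, against 38.6 to 728 in WT T-ALL and, in Notch3 KO T-ALL, 376 to 1979. The sums of 7 neutrophil markers were 57.1 to 530 (thymus), 636 to 84321 (WT T-ALL) and 202 to 7564 (Notch3 KO T-ALL), and those of 8 macrophage markers, in the same order, were 9.52 to 62.9, 23.1 to 390 and 275 to 401. Megakaryocyte and stromal markers were also higher in the T-ALL spleens, with sums of at most 1.2 and 2.56 in thymus and at least 4.05 and 3.33 in T-ALL. Markers of B cells summed to 17.4 or more in thymus and at most 5.8 in T-ALL, and those of thymic epithelium ran from 3.90 to 6.99 in thymus and 0.0215 to 4.76 in T-ALL, with Foxn1, Psmb11 and Krt5 at 0 in all 3 Notch3 KO libraries. Endothelial markers overlapped, at 31.7 to 37.6 in thymus and 18.7 to 41.4 in T-ALL. In such bulk samples, fewer cells of a type and less RNA per cell cannot be told apart.

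Notch3 itself read 3.22, 2.59 and 3.74 in the 3 libraries labelled Notch3 KO, against 3.17 to 5.78 in WT T-ALL. Its level was 1.56 lower than in WT T-ALL on the log2 scale (SE 0.41, limma adjusted p = 0.101). Against the normal C57BL/6 thymus, which read 2.62 to 4.29, the difference was -0.12 (SE 0.45, limma adjusted p = 0.848), and the values of both groups overlapped. The allele is an insertion in the first coding exon, and whether transcripts of the later exons remain is not given in the sources used here. A value over the whole gene therefore does not settle the label, and within these data the direction of each Notch3 KO comparison rests on the labels alone. By flow cytometry the paper reports Notch3 protein lost from thymocyte progenitors of the knockout mice, which is not a measure of these libraries.

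**Figure D1:**
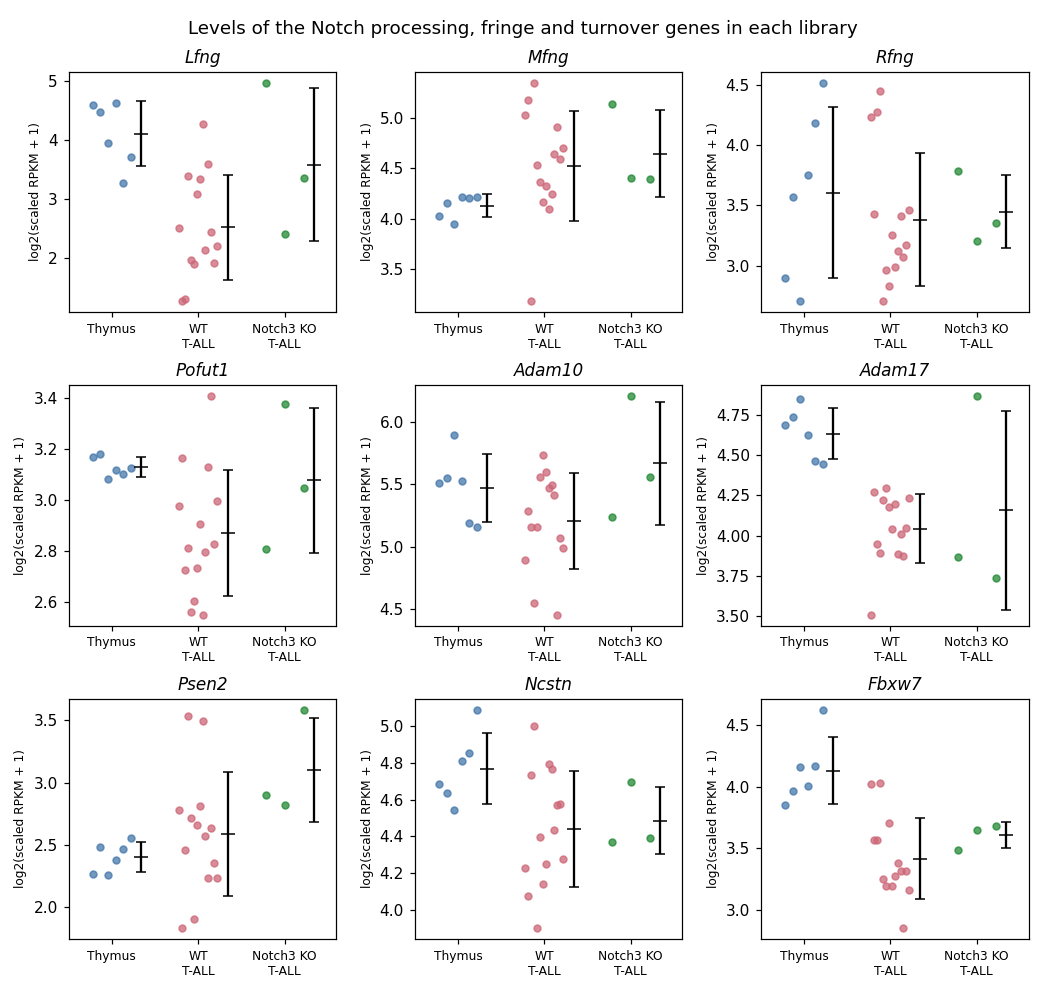
Levels of the 9 genes as log2(scaled RPKM + 1), 1 point per library, for 6 Thymus, 14 WT T-ALL and 3 Notch3 KO T-ALL libraries, with the mean and SD in black beside each group; the vertical axes differ between panels and do not start at 0. All 14 WT T-ALL points for Adam17 lie below the 6 thymus points, while for Lfng the WT T-ALL libraries spread from 1.27 to 4.27.

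The first comparison asked how the machinery differs between WT T-ALL and normal thymus. Of the 9 genes, 3 were lower and none was higher at a limma adjusted p under 0.05, in a comparison in which 51.6% of the 11919 genes tested differed, 22.3% lower and 29.3% higher. Unadjusted, 5 of the 9 were under 0.05 by limma and 5 by the exact permutation test, against 57.4% and 57.2% of all genes. The median difference was -0.27 for the 9 genes and 0.08 for all genes tested.

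Among the fringes, Lfng (gene 16848, chromosome 5, 140607341 to 140615545) showed the widest difference of the 9. In thymus its lowest, median and highest log2 levels were 3.28, 4.22 and 4.62, and in WT T-ALL they were 1.27, 2.33 and 4.27. Of the 14 leukemias, 10 lay below every thymus library, and T-ALL 110 alone lay above the thymus mean. The mean scaled RPKM was 17.2 ± 6.3 (SD, n = 6) in thymus and 5.91 ± 4.72 (SD, n = 14) in WT T-ALL. The difference in log2 level was -1.58 (SE 0.40, 95% confidence interval -2.40 to -0.77), a 3.00-fold lower value on the RPKM + 1 scale, with a limma adjusted p of 0.00211 and a two-sided exact permutation p of 0.00116. Lfng was also among the more variable genes: its SD of 0.89 across WT T-ALL stood at the 91.4th percentile of all genes tested, and its SD of 0.55 across thymus at the 95.2nd. In thymus the low values were those of controls 5 and 6 (3.28 and 3.71).

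Mfng (gene 17305, chromosome 15, 78755882 to 78773516) had higher values in most leukemias without passing the test. Its thymus levels were tight, at 3.95, 4.18 and 4.22 for lowest, median and highest, against 3.18, 4.57 and 5.35 in WT T-ALL. Of the 14 leukemias, 11 exceeded every thymus library and T-ALL 5 was below all of them. Groups that did not overlap, with all 14 higher, were found for 8.42% of genes tested and for none of the 9. The difference in mean was 0.39 (SE 0.21, limma adjusted p = 0.126, exact permutation p = 0.10). Without T-ALL 5 it was 0.50 with a limma adjusted p of 0.0172, so that 1 library decided the call. With each library corrected for GC content and length it was 0.25 (limma adjusted p = 0.295).

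The other genes of chromosome 15 also lay higher in the leukemias. The median difference of its 472 tested genes between WT T-ALL and thymus was 0.39, against 0.08 for all genes, and 70.8% of them were above 0, against 54.6% of all. In Notch3 KO T-ALL the corresponding median was 0.44. Library by library, the median shift of chromosome 15 genes relative to all genes was 0.27 to 0.47 in 11 leukemias and close to 0 in T-ALL 5 (0.0003), 36 (-0.07) and 48 (-0.08). In those 3 leukemias Mfng differed from the thymus mean by -0.95, 0.24 and 0.04, and in the other 11 by -0.03 to 1.22. Within those 11 leukemias, the level of Mfng and the shift had a Pearson r of 0.68 (permutation p = 0.0212) and a Spearman rho of 0.60 (permutation p = 0.0562), and r was 0.56 without the 2 libraries farthest from the median shift. This relation was chosen after seeing the data, and its p-values are unadjusted.

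**Figure D2:**
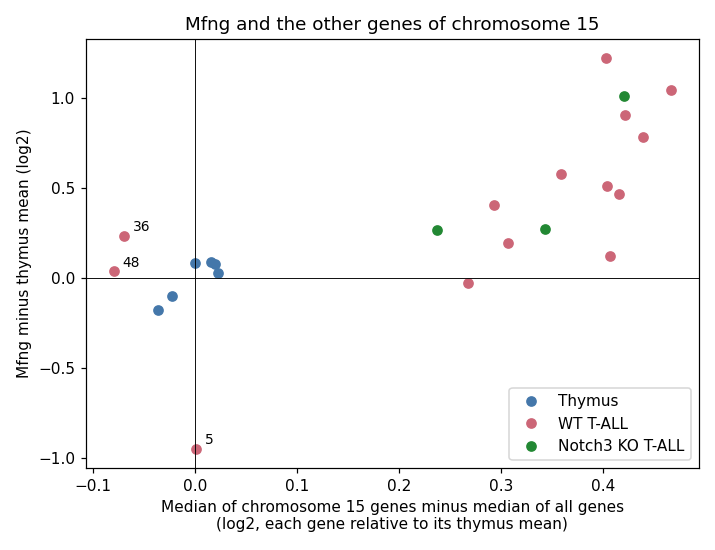
Mfng level minus its thymus mean (vertical axis, log2) against the median of chromosome 15 genes minus the median of all genes (horizontal axis, log2, each gene relative to its thymus mean), 1 point per library. The 3 WT T-ALL libraries with numbers beside them show no chromosome 15 shift, and 11 others lie between 0.27 and 0.47 on the horizontal axis.

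Rfng (gene 19719, chromosome 11, 120780745 to 120784251) ranged widely in both groups, from 2.71 through a median of 3.66 to 4.51 in thymus and from 2.71 through 3.21 to 4.45 in WT T-ALL. The groups overlapped almost entirely, and the difference of -0.22 (SE 0.26) did not pass the test (limma adjusted p = 0.494). Rfng was the most variable of the 9 genes within thymus, where its SD stood at the 98.2nd percentile. Its low thymus values were those of controls 1 and 3 (2.90 and 2.71), and T-ALL 14, 36 and 48 read 2.71, 2.96 and 2.83. A slope on transcript GC content was taken from each library's deviation from the mean of its own group. By that measure these 5 libraries were the lowest within their groups, between -0.13 and -0.29 log2 units per 10 percentage points. The Rfng difference was -0.12 after correction of each library for GC content and length, and -0.47 without the 5 libraries (limma adjusted p = 0.669 and 0.153). It ran from -0.40 without control 3 to -0.041 without control 6.

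The fringe transcripts were also expressed as shares of their summed scaled RPKM. The sum was 46.2 ± 6.9 (SD, n = 6) in thymus, 39.6 ± 11.7 (SD, n = 14) in WT T-ALL and 49.5 ± 24.3 (SD, n = 3) in Notch3 KO T-ALL. Lfng made up 37.4% ± 12.6 of it in thymus, 14.8% ± 11 in WT T-ALL and 25.4% ± 13.1 in Notch3 KO T-ALL, and the share was under every thymus library in 10 of 14 WT leukemias. Mfng made up 36.3% ± 3.8, 59.0% ± 13.0 and 52.7% ± 8.7, above every thymus library in 12 of 14 WT and in 3 of 3 Notch3 KO leukemias. The share of Rfng was 26.3%, 26.2% and 21.9%. Lfng was the most abundant fringe in 4 of 6 thymus libraries, whereas Mfng was in 12 of 14 WT and in all 3 Notch3 KO leukemias. The exceptions were T-ALL 5, led by Rfng at 65.7%, and T-ALL 110, led by Lfng at 44.2%. These shares use the same values as the tests above and were not tested again.

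**Figure D3:**
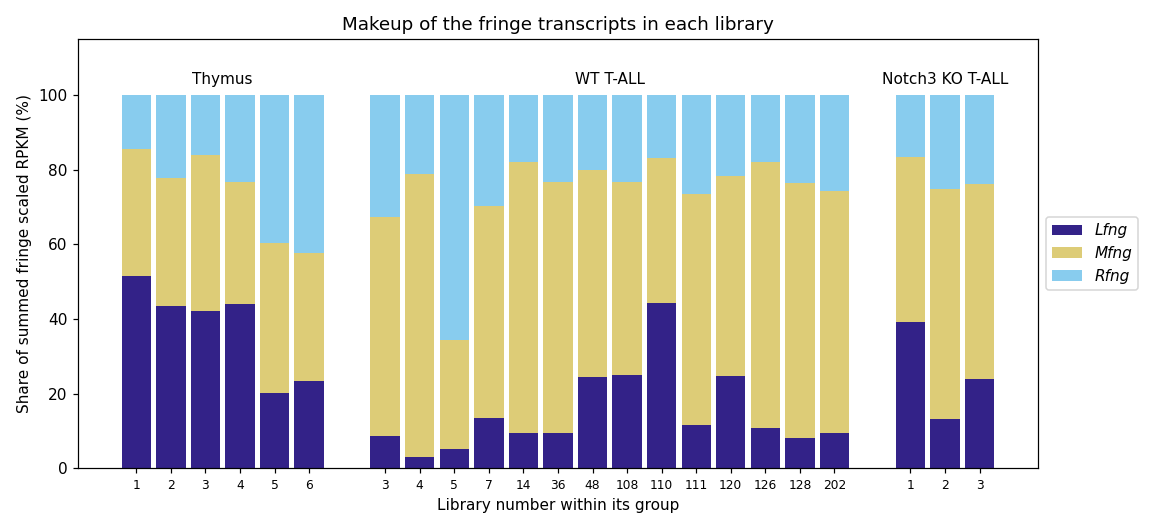
Share of the summed scaled RPKM of the 3 fringe genes (vertical axis, %) taken by Lfng, Mfng and Rfng in each of the 23 libraries, which carry their number within the group. The Lfng segment averages 37.4% in Thymus but 14.8% in WT T-ALL, and among the leukemias Rfng is the largest segment in T-ALL 5 alone.

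Pofut1 (gene 140484, chromosome 2, 153241532 to 153271029), the O-fucosyltransferase on whose product the fringes act, was nearly constant in thymus. It ran from 3.08 through 3.12 to 3.18 in the controls, an SD of 0.04 that stood at the 1.96th percentile, and from 2.55 through 2.82 to 3.41 in WT T-ALL. Of the 14 leukemias, 11 were below all thymus libraries and T-ALL 126 was above all. The difference of -0.26 (SE 0.12) missed the threshold (limma adjusted p = 0.0792, exact permutation p = 0.0222), and without T-ALL 126 it was -0.30 with a limma adjusted p of 0.0261.

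Of the 2 sheddases, Adam17 (gene 11491, chromosome 12, 21323509 to 21373632) separated the groups without overlap. Its lowest, median and highest log2 levels were 4.44, 4.66 and 4.85 in thymus and 3.51, 4.05 and 4.30 in WT T-ALL. All 14 leukemias lay below the lowest thymus library, which held for 6.64% of all genes tested. The difference was -0.59 (SE 0.14, 95% confidence interval -0.88 to -0.31), with a limma adjusted p of 0.00108 and an exact permutation p of 2.58e-05, the smallest these group sizes allow. Adam17 was also uniform among the leukemias, with an SD of 0.21 at the 4.32nd percentile. Adam10 (gene 11487, chromosome 9, 70678944 to 70780229), the sheddase that acts on ligand-bound Notch, was the most abundant of the 9 genes in each group. It ran from 5.16 through 5.52 to 5.89 in thymus and from 4.46 through 5.22 to 5.73 in WT T-ALL, and its difference of -0.27 (SE 0.18) did not pass the test (limma adjusted p = 0.209). The ratio of Adam10 to Adam17 in scaled RPKM was 1.82 ± 0.16 (SD, n = 6) in thymus and 2.37 ± 0.55 (SD, n = 14) in WT T-ALL, above every thymus library in 9 of the 14 and below them all in T-ALL 7 and 126 (1.62 and 1.53). T-ALL 7 and 126 also had the highest GC slopes of the WT leukemias (0.22 and 0.48). Mitochondrial genes made up 45.9% of the scaled RPKM of T-ALL 7, against 10.3 to 20.9% in the other WT leukemias. The part of these traits was not tested.

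The γ-secretase subunits among the 9 genes did not pass the test. Ncstn (gene 59287, chromosome 1, 172066013 to 172082789) ran from 4.54 through 4.75 to 5.09 in thymus and from 3.90 through 4.42 to 5.00 in WT T-ALL, and 8 of 14 leukemias were below all controls. Its difference of -0.33 (SE 0.14) had a limma adjusted p of 0.0505, and it passed without thymus 3, T-ALL 5, 7, 110, 111 or 126, at adjusted p between 0.0195 and 0.0481. Psen2 (gene 19165, chromosome 1, 180227004 to 180263467) ran from 2.26 through 2.43 to 2.55 in thymus and from 1.83 through 2.6 to 3.54 in WT T-ALL, with 8 leukemias above and 4 below all thymus libraries. Its mean difference was 0.18 (SE 0.20, limma adjusted p = 0.462).

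Fbxw7 (gene 50754, chromosome 3, 84814990 to 84979198) was lower in WT T-ALL. It ran from 3.85 through 4.09 to 4.62 in thymus and from 2.85 through 3.32 to 4.03 in WT T-ALL. Of the 14 leukemias, 12 lay below every thymus library, and T-ALL 3 and 7, at 4.02 and 4.03, reached into the thymus range although all 14 were under the thymus mean. The difference was -0.71 (SE 0.15, 95% confidence interval -1.02 to -0.40), with a limma adjusted p of 0.000431 and an exact permutation p of 0.00031.

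Erythroid markers differed between the same groups without overlap. With their mean log2 level as a covariate, 176 genes of all tested were higher and 305 lower in WT T-ALL, in place of 3493 and 2657. None of the 9 passed in that fit, and Lfng, Adam17 and Fbxw7 read -1.94, -0.89 and -0.30 (limma adjusted p = 0.261, 0.123 and 0.685). The score was 0.04 to 0.29 in thymus and 2.63 to 6.32 in WT T-ALL, so that it and the group cannot be told apart in this fit. Across the 14 WT leukemias alone, none of the 9 genes was related to the score after adjustment. The strongest relation was that of Rfng, with Pearson r = -0.62 (permutation p = 0.0179, adjusted p = 0.161) and Spearman rho = -0.56 (permutation p = 0.0401, adjusted p = 0.287), and r was -0.56 without the 2 libraries farthest from the median score. For Lfng, r was 0.34 (permutation p = 0.226, adjusted p = 0.406) and rho 0.35 (permutation p = 0.213, adjusted p = 0.361), with r at 0.52 without the same libraries. None of 27 relations with the T-cell, neutrophil and macrophage scores passed adjustment either. Lfng had r = -0.60 with the T-cell score (permutation p = 0.0251, adjusted p = 0.301) and 0.56 with the neutrophil score (permutation p = 0.0374, adjusted p = 0.301). The matching rho were -0.50 (permutation p = 0.0695) and 0.42 (permutation p = 0.136), both with an adjusted p of 0.510. Without the 2 libraries farthest from the median score, r was -0.32 and 0.078. Psen2 had r = 0.55 and rho = 0.57 with the neutrophil score (permutation p = 0.0427 and 0.0352, adjusted p = 0.301 and 0.510), and r was 0.24 without the same 2 libraries, T-ALL 108 and 110.

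**Figure D4:**
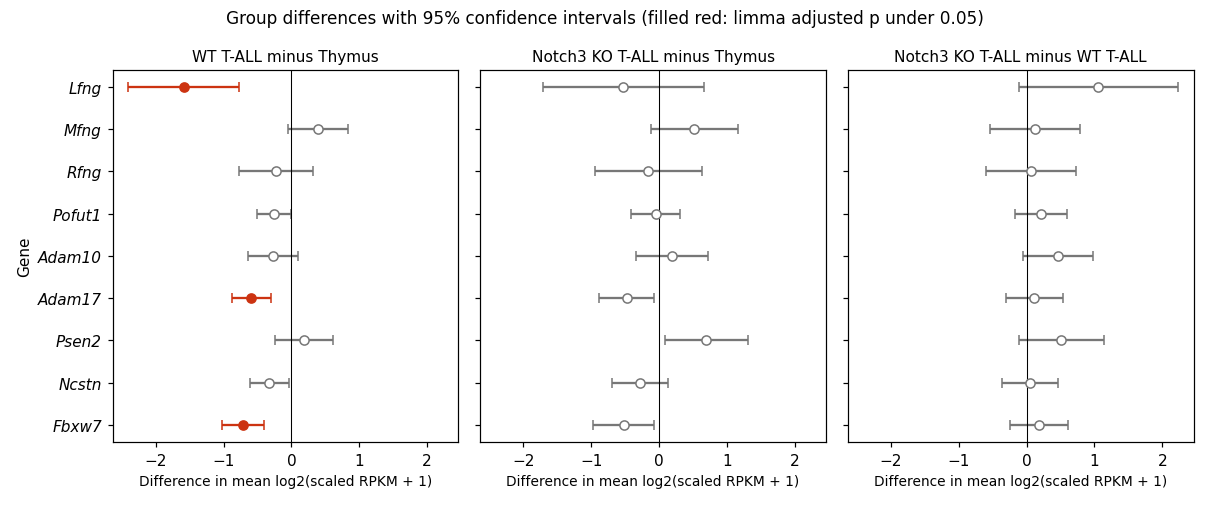
Difference in mean log2(scaled RPKM + 1) for each of the 9 genes (horizontal axis) with its 95% confidence interval, in 3 panels: WT T-ALL minus Thymus, Notch3 KO T-ALL minus Thymus, and Notch3 KO T-ALL minus WT T-ALL. Filled red points, with a limma adjusted p under 0.05, are Lfng, Adam17 and Fbxw7 in the first panel.

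The second comparison set Notch3 KO T-ALL against the same 6 thymus libraries, so the 2 comparisons share their controls. None of the 9 genes passed limma at an adjusted p under 0.05, where 37.5% of genes tested did, 21.2% higher and 16.3% lower. Of these calls 56.5% were higher, and 46.2% after quantile normalization. Unadjusted, 3 were under 0.05 by limma, as were 46.3% of all genes, and 3 were under 0.05 by the exact permutation test, as were 52.1%. Fbxw7 read 3.49, 3.65 and 3.69, below every thymus library, with a difference of -0.52 (SE 0.22, limma adjusted p = 0.0595, exact permutation p = 0.0238). Psen2 read 2.90, 2.82 and 3.58, above every thymus library, with a difference of 0.70 (SE 0.30, limma adjusted p = 0.0656, exact permutation p = 0.0119, the smallest possible). Mfng read 5.14, 4.40 and 4.40 and was also above all thymus libraries, with a difference of 0.52 (SE 0.31, limma adjusted p = 0.196, exact permutation p = 0.0119). Such separation was found higher for 23.9% and lower for 18.4% of all genes tested.

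Adam17 and Lfng were uneven among the 3 Notch3 KO leukemias. Adam17 read 3.87, 4.87 and 3.73, with leukemia 2 above every thymus library and the other two below them all. Its difference was -0.48 (SE 0.20, limma adjusted p = 0.0611), and without leukemia 2 it was -0.83 with an adjusted p of 0.00141. Lfng read 4.97, 2.40 and 3.36, with leukemia 1 above and leukemia 2 below the whole thymus range, and a difference of -0.53 (SE 0.57, limma adjusted p = 0.488) that became 0.06 without leukemia 2. Adam10 read 5.23, 6.20 and 5.56, highest in the same leukemia as Adam17. The ratio of Adam10 to Adam17 was above every thymus library in all 3, at 2.69, 2.58 and 3.75.

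Ncstn, Pofut1 and Rfng did not pass the test. Ncstn read 4.37, 4.69 and 4.39 (difference -0.28, SE 0.20, limma adjusted p = 0.277). Pofut1 read 2.81, 3.38 and 3.05, with leukemia 2 above and the other two below the narrow thymus range (difference -0.05, SE 0.18, limma adjusted p = 0.838). Rfng read 3.78, 3.20 and 3.35 (difference -0.16, SE 0.38, limma adjusted p = 0.768). The calls turned on single samples. Fbxw7 passed without thymus 1, at a difference of -0.58 (limma adjusted p = 0.0477). WT T-ALL libraries lie outside this comparison and enter it only through the fit shared by the 3 groups. Leaving out single ones left the differences unchanged but moved calls. Fbxw7 passed without WT T-ALL 3, 7 or 126 (limma adjusted p = 0.0404 to 0.0437), Psen2 without WT T-ALL 7 or 110 (0.0398 and 0.0417), and Adam17 without WT T-ALL 3 (0.0463). With each library corrected for GC content and length, the differences shrank for Fbxw7 to -0.26, for Adam17 to -0.25 and for Mfng to 0.28 (limma adjusted p = 0.381, 0.239 and 0.462). The erythroid score of these spleens was 5.34 to 7.48, again without overlap with thymus.

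The third comparison asked whether loss of Notch3 in the graft went with a different level of these genes among leukemias. None of the 9 passed limma, adjusted or unadjusted, or the exact permutation test, where 0.617% of 11677 genes passed adjusted (0.591% higher and 0.0257% lower), 8.51% unadjusted and 8.33% by the exact test. The T-ALL groups overlapped for each of the 9, and separated for 0.325% of all genes with Notch3 KO higher and for 0.111% with it lower. All 9 means were higher in Notch3 KO T-ALL, by 0.05 to 1.06, with a median of 0.19 against -0.003 for all genes, of which 49.5% were above 0. For 4 of the 9 the sign rested on 1 library: without Notch3 KO leukemia 1 Mfng read -0.12 and Rfng -0.10, and without leukemia 2 Adam17 read -0.24 and Ncstn -0.059. The intervals were wide. Lfng was 1.06 higher with a 95% confidence interval of -0.12 to 2.23 (limma adjusted p = 0.670), Psen2 0.51 higher with -0.11 to 1.14 (0.752), and Adam10 0.46 higher with -0.06 to 0.98 (0.679). Single leukemias also moved the larger values. Lfng was 0.36 higher without Notch3 KO leukemia 1 and 1.64 without leukemia 2, Adam10 0.20 higher without leukemia 2, and Psen2 0.27 higher without leukemia 3. The narrowest were those of Pofut1, at 0.21 with -0.18 to 0.59, Ncstn, at 0.05 with -0.37 to 0.46, and Adam17, at 0.11 with -0.30 to 0.53. Notch1 had means of 6.81 in WT and 6.84 in Notch3 KO T-ALL, both above the thymus mean of 4.93 (limma adjusted p = 1.58e-06 and 0.000229). The paper reports Notch1 mutations as common in this model. They include 5′ deletions, whose product starts within the transmembrane domain, and PEST-domain mutations, which make the intracellular domain more stable. The levels of the 9 genes were not set against the Notch1 mutations of each leukemia.

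A further 40 genes of the same steps place the 9 in their pathway, and 36 of them were expressed highly enough to be tested. Against thymus, 12 were higher and 3 lower in WT T-ALL, and 8 were higher and 3 lower in Notch3 KO T-ALL. Of all genes tested, 29.3% were higher and 22.3% lower in the first comparison, and 21.2% and 16.3% in the second, and the counts by role below are to be read against these shares. None differed between the T-ALL groups by limma at an adjusted p under 0.05, and 2, Tspan33 and Timp3, did so unadjusted. The median difference of the 36 was 0.25 in WT T-ALL and 0.16 in Notch3 KO T-ALL, against 0.08 for all genes in both. Genes near 0 in thymus, named below, entered these counts and medians only through the leukemias.

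The regulators of ADAM proteases included the widest rises. Of 7 tested, 5 were higher in WT T-ALL and 4 in Notch3 KO T-ALL, and none was lower, where 29.3% and 21.2% of all genes were higher. Tspan33, Tspan15, Tspan17 and Timp3 read at most 0.42, 0.09, 0.17 and 0.07 in thymus on the log2 scale. They passed the filter on low values only through the leukemias and could hardly have been called lower. The counts are therefore not a result about this role. Tspan17 and Timp3 also stayed low in WT T-ALL, with means of 0.75 and 0.62. Tspan33 and Tspan15, tetraspanins that escort ADAM10 to the cell surface, were close to 0 in thymus, with means of 0.34 and 0.05, and reached 3.58 and 1.99 in WT T-ALL and 5.78 and 2.39 in Notch3 KO T-ALL. Every leukemia was above every thymus library for both, as for 8.42% of all genes in WT and 23.9% in Notch3 KO T-ALL (limma adjusted p = 5.65e-07 and 1.86e-05 in WT T-ALL). Tspan5, another of these escorts, rose by 0.74 in WT and 0.91 in Notch3 KO T-ALL, and Timp3, an inhibitor of ADAM proteases, by 0.59 and 1.88. Tspan33 is also known from erythroid cells, whose markers were 5.34 to 7.48 by score in Notch3 KO T-ALL and 0.04 to 0.29 in thymus, and their part in its level was not tested.

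Sugar-adding enzymes other than the fringes and Pofut1 were higher or did not pass. Of 7 O-glycosylation genes, 3 rose in WT T-ALL, against 29.3% of all genes. These were Kdelc2 by 1.49, Kdelc1 by 1.37 and Poglut1 by 0.52, all of them protein O-glucosyltransferases of EGF-like repeats. The first 2 also rose in Notch3 KO T-ALL, by 1.97 and 1.33. Kdelc2 read at most 0.26 in thymus and passed the filter on low values only through the leukemias. Of 4 genes that make or carry GDP-fucose, the donor used by Pofut1, the synthetic enzymes Gmds and Tsta3 rose in WT T-ALL by 0.64 and 0.57, and Gmds rose in Notch3 KO T-ALL by 0.69. The convertase Furin, which cuts Notch during its maturation, differed by -0.41 in WT T-ALL (limma adjusted p = 0.0547).

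Psenen, Aph1a and Aph1b, further γ-secretase subunits, did not pass the test in either comparison. Psenen had means of 5.94, 5.84 and 5.75 in thymus, WT T-ALL and Notch3 KO T-ALL, Aph1a 4.70, 4.94 and 5.12, and Aph1b 0.52, 0.82 and 0.69. Aph1c was under the filter, at 0.09, 0.30 and 0.39.

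Of 13 genes of Notch turnover, 2 were higher and 3 lower in WT T-ALL, where 29.3% and 22.3% of all genes were. None of the core parts of the SCF ligase that carries Fbxw7 was lower at the threshold. Cul1 rose by 0.66, Rbx1 rose by 0.46, and Skp1a differed by -0.01. The ubiquitin ligases Cbl, Nedd4l and Itch were lower, with differences of -1.39, -1.24 and -0.53 in WT T-ALL (limma adjusted p = 0.000663, 3.83e-05 and 0.00267) and of -1.82, -1.73 and -0.71 in Notch3 KO T-ALL (0.00267, 0.000134 and 0.00666). The related ligases Cblb and Nedd4 did not pass, with differences of 0.64 and -0.11 in WT T-ALL (limma adjusted p = 0.0706 and 0.742). Usp28, which opposes Fbxw7 on several substrates, differed by -0.25 (limma adjusted p = 0.165), with 11 of 14 WT leukemias below all thymus libraries and 2 above all of them.

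Fbxw7 acts on proteins, so the transcripts of its substrates are given as levels only. Of 8, 3 were higher and 2 lower in WT T-ALL, near the 29.3% and 22.3% of all genes. Myc rose by 1.87 and Ccne1 by 0.69, and Notch1 rose by 1.87. Mycn fell by 0.91 and Mcl1 fell by 0.63, and Mycn reached the filter on low values only in thymus, at 1.08 to 1.35. Myc is encoded on chromosome 15, whose genes were higher as a group. Notch3 was 1.44 higher in WT T-ALL than in thymus (limma adjusted p = 0.000586).

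**Figure D5:**
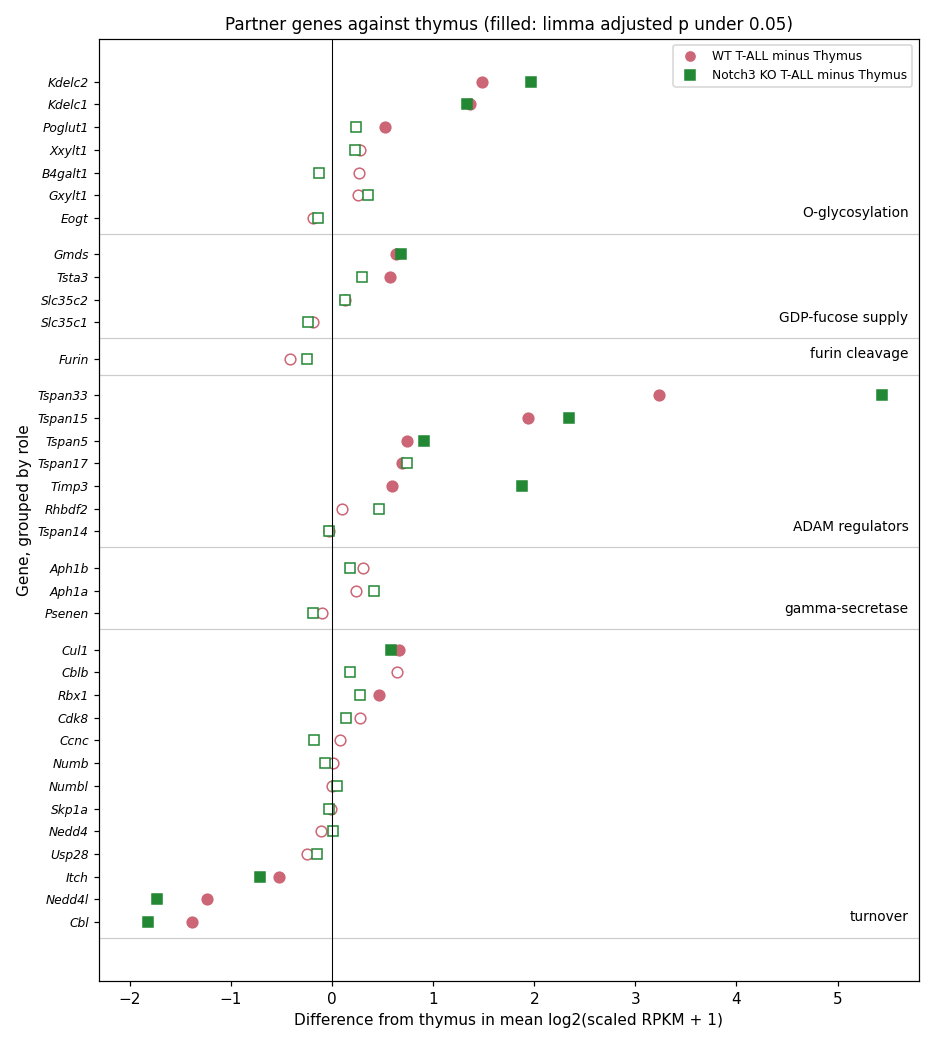
Difference from thymus in mean log2(scaled RPKM + 1) (horizontal axis) for tested partner genes, grouped by role, with circles for WT T-ALL and squares for Notch3 KO T-ALL; filled symbols have a limma adjusted p under 0.05. The widest differences are those of Tspan33, at 3.24 and 5.44, and none of the γ-secretase genes shown is filled.

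Across the 14 WT leukemias, none of the 36 pairs among the 9 genes was related after adjustment over the pairs. By Pearson's r the strongest was Lfng with Psen2, at r = 0.69 (permutation p = 0.00583, adjusted p = 0.136) and Spearman rho = 0.64 (permutation p = 0.0156, adjusted p = 0.188), with r = 0.76 without the 2 libraries farthest from the median Lfng level. Rfng and Fbxw7 followed by that measure with r = 0.68 (permutation p = 0.00753, adjusted p = 0.136) and rho = 0.43 (permutation p = 0.124, adjusted p = 0.521), and r was 0.55 without T-ALL 5 and 7. By Spearman's rho the order was another. Mfng with Pofut1 came first at rho = 0.69 (permutation p = 0.00721, adjusted p = 0.160) and r = 0.51 (permutation p = 0.0608, adjusted p = 0.357), with r = 0.73 without T-ALL 5 and 7. Mfng with Adam10 came next at rho = -0.68 (permutation p = 0.00889, adjusted p = 0.160) and r = -0.53 (permutation p = 0.0550, adjusted p = 0.357), with r = -0.70 without the same libraries.

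Among 8080 genes with a mean scaled RPKM of at least 5, the genes whose order across the 14 leukemias was most like that of each of the 9 are given as a description by Spearman rho. Mfng was closest to Pdxp (0.96) and Hgh1 (0.94), both of which lie on chromosome 15, Pdxp 139 kb from Mfng. Lfng was closest to Junb (0.90) and Ehbp1l1 (0.89), Rfng to Fam193b (0.98) and Safb2 (0.95), and Pofut1 to Mdn1 (0.89) and Setdb1 (0.88). Adam17 was closest to Kdm4c (0.91) and Ppp2r3c (0.88), Adam10 to Usp25 (0.84) and Usp32 (0.83), and Fbxw7 had Ube2d2a (0.84) among its closest. Psen2 was closest to Ifitm3 (0.90) and Vat1 (0.83), and Ncstn to Prr14 (0.90) and Heatr6 (0.85). The 14 libraries differ in GC trend and in erythroid markers, and all 9 rankings come from these same libraries.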

How the data were processed

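The deposited table gives log2 values that the authors made from RPKM, scaled so that the 75th percentile of each library was 10, with 1 added before the logarithm. Per the study's methods, stranded mRNA libraries were sequenced as paired ends and aligned with OSA in ArrayStudio, and the submitters' processing notes name mm10. No counts were used, depth is unknown, and each library is given equal weight. Coordinates and upstream windows came from RefSeq GRCm38.p6, to which 24375 of 24475 gene identifiers matched, and 27 symbols altered to dates were restored.

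Groups came from the labels. Group differences were fitted with limma 3.58.1 in R 4.3.3 (trend and robust empirical Bayes) on genes that reached a scaled RPKM of 1 in 3 or more libraries, and p-values were adjusted by Benjamini-Hochberg over all genes tested. Thymus comparisons were fitted on all 3 groups and the comparison between leukemias on the 2 T-ALL groups. Two-sided exact permutation tests of single genes, unadjusted, were computed with Python 3.11.15 and scipy 1.17.1, and correlations used 100000 resamples. Nothing in the labels says that thymus controls were separate animals. The paper's plot of expression in T-ALL against normal thymus takes each dot as a mouse, without naming these libraries. If the controls were not separate animals, p-values there may measure technical spread. The fits were checked on simulated data.

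All 9 genes were described in full. Of the 40 partner genes, the 3 largest rises and falls past the threshold were named in each comparison, along with γ-secretase subunits and Notch receptors. Some values that the rule would name are not reported here. Others of that list, such as Tspan5, Tspan17, Timp3, Cblb, Nedd4 and Usp28, were named after their values were seen. The genes and lists were chosen with earlier results of these data known. Corrections for GC content and length, and the fits without libraries of low GC slope or without T-ALL 7 and 126, were chosen after seeing the data.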

Additional observations from a re-analysis of the deposited data

How the results depend on the processing

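Calls for Lfng, Adam17 and Fbxw7 in WT T-ALL against thymus held under every offset, filter and normalization tried and when any single library was left out. Of the 9 genes, 3 passed as reported and 3 to 5 when a library was left out (5 without T-ALL 5 or 126). The count was 5 without T-ALL 7 and 126 together and 5 by the exact permutation test, unadjusted. Offsets of 0.1 and 0.01 and the filter at 5 added Ncstn, for 4. With the erythroid covariate it was 0, and the signs of Rfng (1.22) and Ncstn (0.11) turned. For Notch3 KO T-ALL against thymus, 0 passed as reported and 0 to 2 when a library was left out. The count was 3 with the 2 groups alone in the fit (Mfng, Psen2 and Fbxw7), 2 without T-ALL 7 and 126, and 3 by the exact permutation test. With the erythroid covariate Rfng (1.99), Adam10 (-1.24), Ncstn (0.37) and Fbxw7 (0.090) changed sign. When single libraries were left out, the sign turned for Rfng without thymus 6 (range -0.34 to 0.023), Pofut1 without Notch3 KO 1 (-0.20 to 0.082), and Lfng (-1.23 to 0.058) and Adam10 (-0.073 to 0.41) without Notch3 KO 2. Between the T-ALL groups 0 passed under every alternative. There the sign turned for Adam17 with the erythroid covariate (-0.024), and for Rfng (-0.085) and Ncstn (-0.034) without the 5 libraries of lowest GC slope. It also turned for Mfng (range over single libraries left out -0.12 to 0.25) and Rfng (-0.10 to 0.19) without Notch3 KO 1, and for Adam17 (-0.24 to 0.32) and Ncstn (-0.059 to 0.10) without Notch3 KO 2. The cause of these changes was not tested.

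The labels of thymus and T-ALL libraries share some numbers, but same-numbered libraries did not deviate together (correlations of deviations from -0.24 to 0.15), so the numbers do not pair them. With the replicate block, 1 of the 9 genes (Lfng) passed in WT T-ALL against thymus, where Adam17 read -0.68 and Fbxw7 -0.36 (limma adjusted p = 0.0898 and 0.171), and 0 passed in Notch3 KO T-ALL against thymus. The block turned the sign of Rfng in both (0.45 and 0.20) and of Psen2 in the first (-0.084). The T-ALL groups share 1 number, and no paired analysis was possible between them because no residual degrees of freedom remain. Quantile normalization moved the share of higher genes among all calls from 56.8% to 48.5% in WT T-ALL against thymus, and in Notch3 KO T-ALL it was 56.5% before and 46.2% after, where the median difference of all genes moved from 0.08 to -0.05. It changed no call among the 9 genes. No fit with batch as a term was run, since the labels and headers name no batch. Depth is unknown without counts.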
